A study of Homo sapiens with 6 samples.

Results

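The MYC, MAX and MXD network is a family of transcription factors and their close partners that share or read the dimerization partner MAX. Its 10 members here were MYC, MAX, MNT, MXD1, MXD3, MXD4, MXI1, MLX, MGA and MIZ1, found by matching the 58780 human gene IDs of the deposited tables to GENCODE release 29. MIZ1 is no symbol of that release. It was read as ZBTB17, the MYC-interacting zinc finger protein 1 (Miz-1), and PIAS2, a SUMO ligase that carries the same older name, is given beside it. The study sequenced ribosomal RNA-depleted total RNA of HCT116, a line grown from a human colorectal carcinoma, in 3 libraries after 16 h of auxin and 3 libraries of a DMSO control, the solvent alone. Auxin is a plant hormone used to degrade proteins that carry a matching degron tag. The labels list only the treatment under genotype and name neither a tagged protein nor a clone, so what auxin removed in these cells is not given in the sources used here, and the comparison is between auxin and solvent. The labels call the replicates biological, and each was 1 library.

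MAX sits at the centre of this network. MYC dimerizes with MAX, binds the E-box CACGTG and activates genes of growth, ribosome biogenesis and metabolism, and colorectal carcinomas commonly carry high MYC levels because Wnt signalling drives the gene. The MXD proteins (MXD1, MXD3, MXD4 and MXI1) and MNT compete with MYC for MAX and recruit SIN3 and histone deacetylases, which silence the same sites. MLX is a MAX-like protein that pairs with the glucose-responsive factors MLXIP (MondoA) and MLXIPL (ChREBP) and with several MXD proteins. MGA, a very large protein, pairs with MAX inside the Polycomb complex PRC1.6, and Miz-1 is the zinc finger factor through which MYC represses genes such as CDKN1A and CDKN2B.

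Total expected counts, the estimated reads assigned to genes, ranged from 234035407 to 625892507 per library, and replicate 1 was the deepest in both groups. Levels are given in TPM, which is scaled by transcript length, or in CPM, which is not. Changes were tested with edgeR's quasi-likelihood test on counts over all 19725 genes that passed a filter on low counts, without pairing of replicates. A gene was called at a Benjamini-Hochberg adjusted p under 0.05. By this rule 25.4% of tested genes were called higher and 26.9% lower after auxin. The changes moved with base composition. Genes were split into 10 equal classes by GC content. In the class richest in G and C the median log2 fold change was -0.79 and 56.2% were called lower, against a median of 0.19 and 14.5% in the fifth class, so each member is also given with counts corrected for GC content where this altered its call. The part of base composition in the changes was not tested further. Epithelial markers summed to 1841 to 2528 TPM in DMSO and 2244 to 2696 TPM in auxin libraries, with VIL1 under the filter, whereas leukocyte markers summed to at most 0.13 TPM, fibroblast markers to 0.56 to 2.61 TPM and endothelial markers to at most 0.08 TPM.

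Within the network MYC was the most abundant transcript per length, and MXD3 the least. In DMSO libraries MYC averaged 80.3 ± 15.5 TPM (SD, n = 3), MAX 58.1 ± 12.7, MLX 33 ± 4.70, MXI1 28.1 ± 5.24, MGA 14.3 ± 4.37, MNT 4.2 ± 1.34, MXD1 4.12 ± 0.472, ZBTB17 3.05 ± 1.37, MXD4 1.93 ± 0.729 and MXD3 1.53 ± 0.762. In this order MAX stood clear of MLX, MXI1 of MGA, and MGA of MNT. The libraries of all other neighbours overlapped, including those of MYC and MAX. After auxin MYC reached 171.3 ± 16.8 TPM and no longer overlapped MAX, at 74.6 ± 8.67. ZBTB17, at 10.2 ± 1.29 TPM, then lay above MNT and MXD1, whose libraries overlapped each other. Of this TPM of ZBTB17, 88.6% ± 0.744 was in transcripts annotated without a reading frame. By CPM ZBTB17 lay below both after auxin, at 7.99 ± 0.163 against 12.1 ± 2.04 for MNT and 14.6 ± 1.13 for MXD1.

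**Figure D1:**
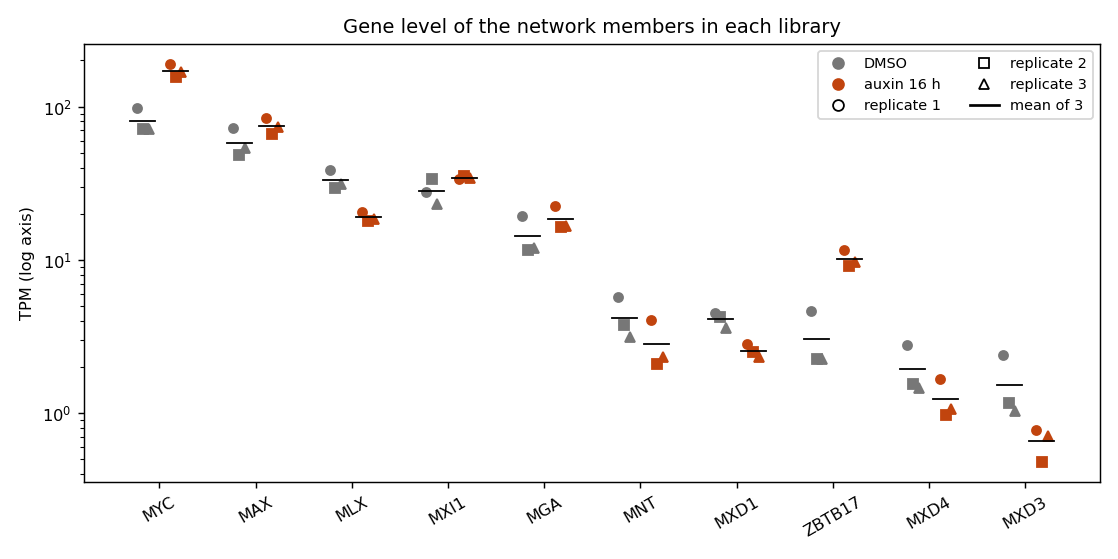
TPM of each member (log axis) in the 3 DMSO (grey) and 3 auxin (red) libraries, with the replicate shown by symbol and the mean by a bar. MYC stood at 71.3 to 98.2 TPM in DMSO and 157.0 to 189.8 TPM in auxin libraries. By TPM replicate 1 was the highest DMSO library for every member except MXI1. By CPM, not drawn here, it was the lowest for MYC, MAX, MXD1, MXI1, MLX and MGA and the highest for the other members.

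The make-up of the network shifted towards MYC. MYC supplied 34.5% to 35.6% of the summed TPM of the 10 members in DMSO libraries and 50.96% to 51.16% in auxin libraries. The ratio of MYC to MAX TPM was 1.36, 1.48 and 1.32 in DMSO replicates 1, 2 and 3 and 2.27, 2.36 and 2.27 in the auxin replicates, with no overlap. The 5 dedicated competitors MNT, MXD1, MXD3, MXD4 and MXI1 together held 43.2, 44.2 and 32.2 TPM in DMSO and 43.1, 41.2 and 40.9 TPM in auxin libraries, which overlap. MYC per unit of these competitors was therefore 1.61 to 2.28 in DMSO and 3.81 to 4.40 in auxin libraries. Among the competitors MXI1 made up 64.3% to 75.7% of the TPM in DMSO and 78.3% to 85.3% in auxin libraries. The share of MLX in the network was 13.9% to 15.4% in DMSO and 5.53% to 5.82% in auxin libraries. Shares of 1 sum are not independent of each other and were not tested.

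All 10 members passed the low-count filter. MYC, MAX, MGA and ZBTB17 were called higher and MNT, MXD1, MXD3 and MLX lower, so 8 of 10 were called where 52.3% of all tested genes were. The CPM of the groups did not overlap for 8 of 10 members, against 60.3% of tested genes. A large share of all genes therefore moved as well, and the median absolute log2 fold change over tested genes was 0.44.

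MYC rose 2.41-fold. Its CPM was 162.0, 172.6 and 167.1 in DMSO replicates 1, 2 and 3 and 385.5, 411.5 and 411.2 in the auxin replicates. Every auxin library lay far above every DMSO library, and within each group the 3 libraries were close together. The log2 fold change was 1.27 ± 0.06 (SE, n = 3 per group, edgeR's quasi-likelihood test, adjusted p = 7.48e-06), larger in size than that of 85.0% of tested genes. MYC stayed called in each of the 18 alternative settings, between 1.10 and 1.43. Both main coding transcripts rose alike. MYC-205, of 453 codons, which matches the longer MYC protein from an upstream start, changed by 1.18 ± 0.07 (adjusted p = 0.000412). MYC-202, of 439 codons, changed by 1.34 ± 0.09 (edgeR's quasi-likelihood test on transcripts, adjusted p = 0.000525). Among all transcripts tested, 8.43% were called higher and 11.2% lower. MYC-202 held 67.3% to 71.4% of the MYC TPM in DMSO and 70.6% to 73.9% in auxin libraries, and neither share passed the limma test of transcript shares.

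The 5 genes whose log2 CPM followed MYC most closely over the 6 libraries were BCL2L1, an inhibitor of apoptosis, TRIB1, a pseudokinase, ARSD, a sulfatase family member, TAMM41, a mitochondrial lipid enzyme, and DNMBP, a Cdc42 exchange factor. Their Pearson r with MYC was at least 0.9996. The libraries form a DMSO and an auxin cluster for MYC, and 18.0% of the 8873 genes compared had an r of at least 0.95, so this likeness describes mainly the step between the groups. Their own log2 fold changes were 0.74 for BCL2L1, 0.87 for TRIB1, 1.41 for ARSD, 0.33 for TAMM41 and 0.67 for DNMBP.

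MAX, the shared partner, rose 1.41-fold. Its CPM was 57.5, 60.02 and 61.6 in DMSO and 80.3, 83.5 and 88.6 in auxin replicates 1, 2 and 3. The groups did not overlap, and the log2 fold change was 0.50 ± 0.06 (edgeR's quasi-likelihood test, adjusted p = 0.000371). On the log2 TPM scale the difference was 0.37 with a pseudocount of 1 and did not pass limma's test (adjusted p = 0.189). MAX lies on chromosome 14 (GRCh38, 65006174 to 65102695, minus strand) and shares bases with 2 coding genes of the opposite strand. FNTB, with 56479 shared bases, was at 12.2 TPM in DMSO and 12.4 TPM in auxin libraries, and the read-through gene CHURC1-FNTB, with 55630, at 6.33 and 1.86 TPM. Whether counting used the strand is not given in the sources used here.

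The isoforms of MAX turn on 3 exons. An in-frame exon of 27 bases near the start separates MAX-205, with 160 codons, from MAX-204, with 151, and marks the long and short MAX proteins. It is shown here because inclusion of this exon is the best known difference between MAX proteins. The capitals are the exon (chr14:65101546-65101572, GRCh38, minus strand, coding), with 12 bases of each neighbouring coding exon in lower case, from the GENCODE transcript.
MAX 27-base exon: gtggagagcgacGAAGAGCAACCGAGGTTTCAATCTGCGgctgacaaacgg
MAX-210, of 124 codons, skips an exon of 108 bases (65093708 to 65093815). MAX-216, of 103 codons, uses an alternative exon (65077287 to 65077428) in place of the usual end of the reading frame.

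MAX-204 was the leading transcript, with 35.5%, 42.3% and 38.9% of the TPM of MAX in DMSO replicates 1, 2 and 3 and 33.7%, 37.2% and 37.6% in the auxin replicates. MAX-216 followed with 22.1%, 26.8% and 31.1% in DMSO and 26.5%, 34.8% and 34.3% in auxin libraries. Both sets of libraries overlapped. MAX-210 held 30.8% and 30.1% in replicate 1 of DMSO and auxin. In replicates 2 and 3 it held 13.1% and 12.3% in DMSO and 15.4% and 15.6% in auxin libraries. Its largest step was thus between replicate 1 and the rest, and the groups overlapped. MAX-205 lay at 2.43% to 3.69% in DMSO and 3.96% to 4.88% in auxin libraries. MAX-201 lay at 2.03% to 2.45% in DMSO and 1.40% to 1.68% in auxin libraries. These were the only 2 of the 6 transcripts with a mean share of at least 2% whose groups did not overlap, and each reached the smallest two-sided exact permutation p that 3 against 3 libraries allow, 0.1. The retained-intron transcript MAX-209 had 4.08% to 7.98% in DMSO and 1.97% to 4.83% in auxin libraries (exact permutation p = 0.2). No MAX transcript passed the limma test of shares, in which 10.6% of 76312 transcripts did, 6.5% with a higher and 4.11% with a lower share after auxin.

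**Figure D2:**
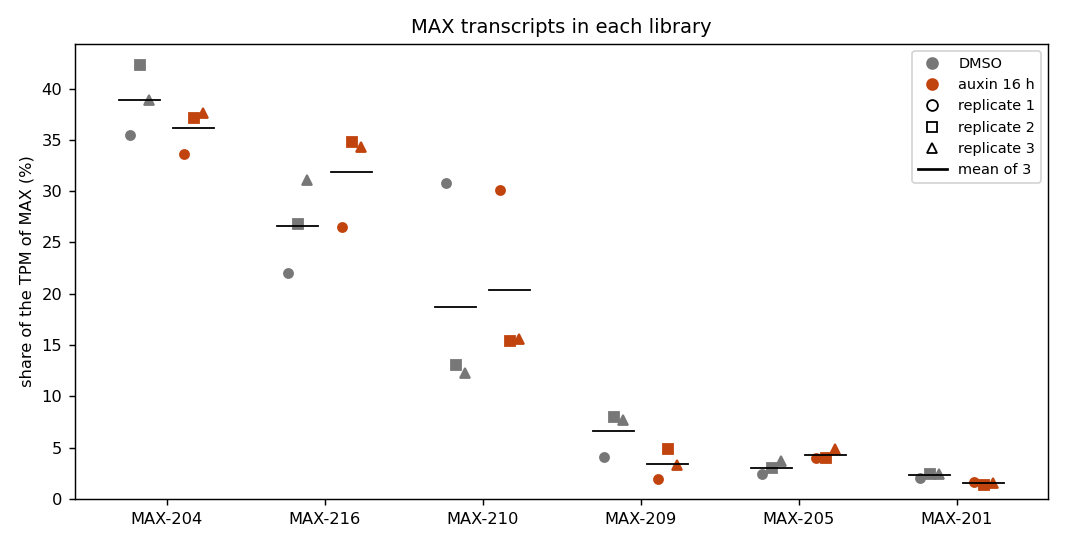
Share of the TPM of MAX held by its 6 main transcripts in each library, with DMSO in grey, auxin in red, replicates as symbols and means as bars. MAX-204 and MAX-216 lead in most libraries, and MAX-210 stands at about 30% in replicate 1 of both groups (30.8% and 30.1%) and lower in the rest.

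Grouped by exon, no difference passed the unpaired test. The 11 transcripts that include the 27-base exon held 53.5% ± 5.91 in DMSO and 60.1% ± 3.54 in auxin libraries (SD, n = 3 each, exact permutation p = 0.3). The difference was 4.22, 9.43 and 6.22 percentage points within replicates 1, 2 and 3. Transcripts with the alternative exon of MAX-216 held 28.99% ± 4.71 and 33.6% ± 4.87 (exact permutation p = 0.3), with differences of 4.06, 7.21 and 2.70 points within replicates. Both differences were thus positive within all 3 replicate numbers, and no paired test of them was run. Those that skip the 108-base exon held 18.7% ± 10.5 and 20.4% ± 8.43 (exact permutation p = 0.6). Their difference of 1.62 points was 7.66 when DMSO replicate 1 was left out. It turned negative when DMSO replicate 2 (-1.21), DMSO replicate 3 (-1.60) or auxin replicate 1 (-3.25) was left out. As levels, MAX-205 changed by 1.04 ± 0.24 on the log2 scale (edgeR's quasi-likelihood test, adjusted p = 0.0299) and MAX-216 by 0.80 ± 0.22 (adjusted p = 0.0497). MAX-205 lost its call without any 1 of DMSO replicates 1 and 2 or auxin replicates 1, 2 and 3 (highest adjusted p = 0.114), and MAX-216 without any 1 of DMSO replicates 1, 2 and 3 or auxin replicates 2 and 3 (highest 0.160). MAX-204 changed by 0.44 ± 0.12 (adjusted p = 0.0516), and by the same with the replicate number as a block (adjusted p = 0.00538). With that block MAX-210 was called too, at 0.72 (adjusted p = 0.0198).

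Among the competitors of MYC for MAX, MNT, MXD1 and MXD3 were called lower, MXD4 missed the threshold with a negative value, and MXI1, the most abundant, had a positive value that was not called. MXD1, a competitor that accumulates on differentiation, fell to 14.2, 15.9 and 13.8 CPM in auxin replicates 1, 2 and 3 from 18.1, 23.4 and 19.9 CPM in DMSO. The groups did not overlap, with a log2 fold change of -0.48 ± 0.11 (edgeR's quasi-likelihood test, adjusted p = 0.00887). Corrected for GC content it was -0.63 (adjusted p = 0.000952). On the log2 TPM scale with a pseudocount of 1 limma's test gave -0.52 (adjusted p = 0.0790). MXD1 shares 7888 bases with SNRNP27, a spliceosome gene on the same strand at 18.7 TPM in DMSO, so reads in that span are uncertain.

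MXD3, the S-phase member, had 3.20, 2.37 and 2.11 CPM in DMSO and 1.46, 1.19 and 1.68 CPM in auxin libraries. Its groups did not overlap, and the log2 fold change was -0.83 ± 0.20 (edgeR's quasi-likelihood test, adjusted p = 0.0116). The gene is in the richest GC class, and with the GC correction the value was -0.10 (adjusted p = 0.648). With protein-coding transcripts only it was -0.50 (adjusted p = 0.0567), and on log2 TPM limma gave an adjusted p of 0.0953. The gene shares 3186 bases with PRELID1 on the opposite strand, at 114.7 TPM in DMSO and 89.0 TPM in auxin libraries, and 2284 bases with RAB24 on the same strand, at 0.39 and 0.053 TPM, so reads in those spans are uncertain. MXD3-202, of 193 codons, had 0.860, 0.570 and 0.570 TPM in DMSO and 0.560, 0.410 and 0.620 TPM in auxin libraries. The retained-intron transcript MXD3-206 changed by -2.28 ± 0.47 (edgeR's quasi-likelihood test on transcripts, adjusted p = 0.0205), and its call was lost on log2 TPM with limma (adjusted p = 0.0597) and without DMSO replicate 2 or auxin replicate 2 or 3 (highest adjusted p = 0.0785). The coding transcript MXD3-203, of 206 codons, changed by -3.29 ± 0.76 (edgeR's quasi-likelihood test on transcripts, adjusted p = 0.0299). Leaving out single libraries gave it adjusted p-values up to 0.0977 in that test, and its lowest library held 1.23 counts. MXD3-202 made up 35.7% to 55.3% of the TPM in DMSO and 71.8% to 87.3% in auxin libraries.

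MNT, a competitor present in most cell types, had 17.7, 16.9 and 14.4 CPM in DMSO and 14.4, 11.4 and 10.5 CPM in auxin libraries. The groups met at DMSO replicate 3 and auxin replicate 1. The log2 fold change was -0.43 ± 0.14 (edgeR's quasi-likelihood test, adjusted p = 0.0351). This call was lost without DMSO replicate 1 (adjusted p = 0.0748), DMSO replicate 2 (0.0831), auxin replicate 2 (0.108) or auxin replicate 3 (0.114), with upper-quartile factors (0.144), with library size scaling (0.0543) and on log2 TPM with limma (0.316). MNT is in the richest GC class, and with the GC correction its direction turned to 0.28 (adjusted p = 0.0200).

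MXD4 had 7.42, 6.45 and 6.05 CPM in DMSO and 5.98, 4.52 and 4.53 CPM in auxin libraries, which do not overlap. Its log2 fold change of -0.40 ± 0.15 missed the threshold (edgeR's quasi-likelihood test, adjusted p = 0.0509). DESeq2 called it (adjusted p = 0.0145). With the replicate number as a block it was -0.41 (adjusted p = 0.000630), without auxin replicate 1 it was -0.55 (adjusted p = 0.00751), and with the GC correction it was 0.02 (adjusted p = 0.867). MXI1 had 49.8, 87.9 and 57.4 CPM in DMSO and 75.4, 99.3 and 88.0 CPM in auxin libraries. DMSO replicate 2 reached into the auxin range, and the log2 fold change of 0.43 ± 0.21 was not called (adjusted p = 0.131). With the block it was 0.46 (adjusted p = 0.000803), and without DMSO replicate 2 it was 0.69 (adjusted p = 0.00860). The main MXI1 transcript, MXI1-201 of 228 codons, rose by 0.82 ± 0.13 (edgeR's quasi-likelihood test on transcripts, adjusted p = 0.00800), from 16.8, 14.7 and 12.3 TPM to 24.8, 21.2 and 22.6 TPM.

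**Figure D3:**
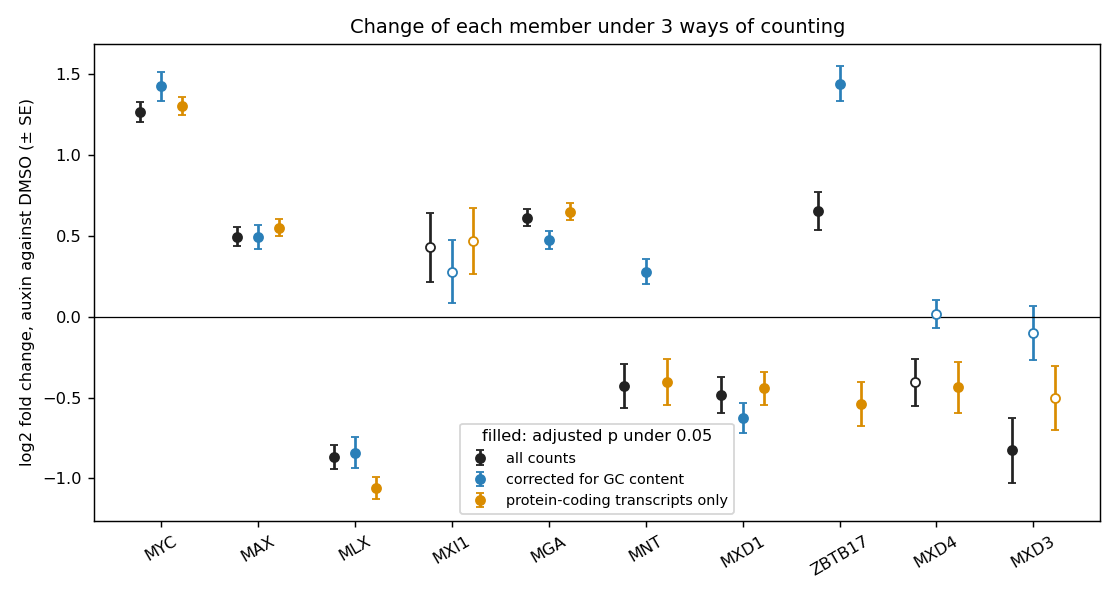
Log2 fold change of each member, auxin against DMSO, with its SE, from all counts (black), with a correction for GC content (blue) and from protein-coding transcripts only (orange), filled where the adjusted p was under 0.05. MYC, MAX, MGA, MXD1 and MLX keep their direction and call in all 3, MNT and MXD4 turn from negative to positive values with the GC correction, and ZBTB17 turns negative when only coding transcripts count.

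E-boxes in the promoters of the members are shown because this is the letter sequence that the network binds. RefSeq windows from 250 bases before to 50 bases after a gene start (GRCh38.p14) were held for 8 of the 10 members, in 13 windows. The 6-letter motif CACGTG, which reads the same on both strands, was in 3 of them, those of MNT, MXD4 and MLX, and in 7.26% of all 35116 windows. In the main fit the log2 fold changes of these 3 genes were all negative, at -0.43 for MNT, -0.40 for MXD4 (not called) and -0.86 for MLX. With the GC correction only that of MLX was negative. The stretches below lie upstream of the start, with the E-box in capitals.
MNT (chr17:2401218-2401283, minus strand): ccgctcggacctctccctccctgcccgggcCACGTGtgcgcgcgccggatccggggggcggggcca
MXD4 (chr4:2262312-2262359, minus strand): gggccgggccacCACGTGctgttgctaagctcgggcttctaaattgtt
MLX (chr17:42567020-42567085, plus strand): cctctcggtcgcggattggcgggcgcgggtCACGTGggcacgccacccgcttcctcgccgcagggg
No CACGTG lay in the windows of MAX, MGA, MXD1, MXD3 or MXI1. Of these, MXD1 and MXD3 also had negative values in the main fit, at -0.48 and -0.83. MAX, MGA and MXI1 had 0.50, 0.61 and 0.43 (MXI1 not called). Whether the motif goes with the direction of change was not tested. A match describes these letters only.

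MLX fell in level, and its transcripts changed in kind. Its CPM was 64.8, 72.9 and 75.5 in DMSO and 36.9, 40.5 and 39.7 in auxin replicates 1, 2 and 3. The groups were far apart, and the log2 fold change was -0.86 ± 0.07 (edgeR's quasi-likelihood test, adjusted p = 8.41e-05), a 1.82-fold decrease. All 18 alternatives kept the call, between -1.06 and -0.74. MLX shares 925 bases with PSMC3IP on the opposite strand, which stood at 12 TPM in DMSO and 3.23 TPM in auxin libraries.

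The transcript MLX-203, of 244 codons, was the one of the 2 main coding transcripts that fell. It had 24.4, 17.7 and 18.9 TPM in DMSO and 4.74, 3.86 and 4.70 TPM in auxin libraries, a log2 change of -2.02 ± 0.12 (edgeR's quasi-likelihood test on transcripts, adjusted p = 0.000344). MLX-202, of 214 codons, had 8.87, 8.58 and 9.58 TPM in DMSO and 8.91, 7.99 and 8.04 TPM in auxin libraries, which overlap. Its share of MLX therefore went from 23.2% to 30.6% in DMSO to 43.5% to 44.5% in auxin libraries (limma on log2 odds, adjusted p = 0.00566). MLX-204, a retained-intron transcript, had 0.450, 0.390 and 0.270 TPM in DMSO and 3.38, 3.88 and 3.70 TPM in auxin libraries. Its share went from 0.861% to 1.33% up to 16.5% to 21.6%, with a log2 odds change of 4.47 (limma, adjusted p = 0.000691). Transcripts of MLX annotated without a reading frame held 5.65% ± 1.36 of its TPM in DMSO and 29.2% ± 1.30 in auxin libraries.

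MGA, the PRC1.6 subunit, rose 1.53-fold. Its CPM was 121.5, 121.5 and 122.6 in DMSO and 179.5, 192.0 and 188.1 in auxin libraries. The DMSO libraries were nearly equal, no auxin library came near them, and the log2 fold change was 0.61 ± 0.05 (edgeR's quasi-likelihood test, adjusted p = 8.99e-05). On the log2 TPM scale with a pseudocount of 1 limma's test gave 0.37 (adjusted p = 0.318). Of its transcripts, MGA-207, which codes for 2856 codons, rose by 0.83 (edgeR's quasi-likelihood test on transcripts, adjusted p = 0.00282), a call lost on log2 TPM with limma (adjusted p = 0.0862). The share of the long transcript MGA-201 was 30.9% ± 2.30 in DMSO and 15.9% ± 10.2 in auxin libraries, a spread that left its share uncalled (limma, adjusted p = 0.181). MGA-211, which codes for the same number of codons, 3065, had a difference of the opposite sign, with 4.52% ± 3.64 and 21.4% ± 14.6 (limma, adjusted p = 0.234).

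ZBTB17, the gene of Miz-1, had the largest shift of all members towards transcripts without a reading frame. By counts it rose 1.57-fold, from 5.90, 4.50 and 4.83 CPM in DMSO to 8.18, 7.91 and 7.88 CPM in auxin libraries, with a log2 fold change of 0.65 ± 0.12 (edgeR's quasi-likelihood test, adjusted p = 0.00300). With the GC correction the change was 1.44 (adjusted p = 3.34e-05). Per length the increase was larger too, from 4.63, 2.25 and 2.27 TPM to 11.6, 9.17 and 9.75 TPM, a ratio of 3.34. Counted over protein-coding transcripts only, the direction turned. These had 6.43, 4.69 and 5.06 CPM in DMSO and 3.87, 3.63 and 3.63 CPM in auxin libraries, a log2 fold change of -0.54 ± 0.14 (edgeR's quasi-likelihood test, adjusted p = 0.0110), where 31.2% of 13755 genes were called higher and 32.7% lower.

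Transcripts of ZBTB17 without an annotated reading frame held 17.7%, 13.8% and 10.6% of its TPM in DMSO and 87.7%, 88.9% and 89.1% in auxin replicates 1, 2 and 3. The difference of 74.5 percentage points was at or above that of 99.95% of 10830 genes with both kinds of transcript, of which 6.47% rose by at least 20 points. ZBTB17-202, which spells the protein of 803 codons in 16 exons, went from 53.5%, 58.2% and 67.7% to 11.3%, 10.9% and 10.7% of the TPM (limma on log2 odds, adjusted p = 0.00110). Its own level was 2.47, 1.31 and 1.53 TPM in DMSO and 1.32, 1.00 and 1.04 TPM in auxin libraries. The groups just met, and the change of -0.45 ± 0.14 was not called (edgeR's quasi-likelihood test on transcripts, adjusted p = 0.0773).

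ZBTB17-212 took the largest share of the TPM after auxin. It had 0.2, 0.1 and 0.03 TPM in DMSO and 3.76, 3.61 and 3.77 TPM in auxin libraries. Its share went from 1.33% to 4.44% up to 32.3% to 39.4% (limma on log2 odds of counts, adjusted p = 0.00389). Of its 467 bases, 336 lie in introns of ZBTB17-202. By CPM, which is not scaled by length, ZBTB17-202 still led after auxin, at 3.22 ± 0.0482 against 1.14 ± 0.152 for ZBTB17-212. The processed transcripts ZBTB17-205, ZBTB17-208, ZBTB17-209 and ZBTB17-210 gained share as well, to means of 17.6%, 12.02%, 7.40% and 11.9% of the TPM after auxin from 3.15%, 2.40%, 2.06% and 1.25%. Altogether the 9 transcripts of ZBTB17 with at least 20% of their bases in introns of ZBTB17-202 held 10.9% ± 3.28 in DMSO and 70.9% ± 1.75 in auxin libraries (exact permutation p = 0.1, the smallest possible). For MLX the same measure went from 5.98% ± 1.11 to 29.03% ± 1.42 and for MXD3 from 52.2% ± 9.37 to 18.5% ± 8.47, so this measure did not rise throughout the network. In MXD3 it takes in the coding transcripts MXD3-201 and MXD3-203, at 9.54% and 16.2% in DMSO, besides the retained-intron transcript MXD3-206, at 26.4%.

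**Figure D4:**
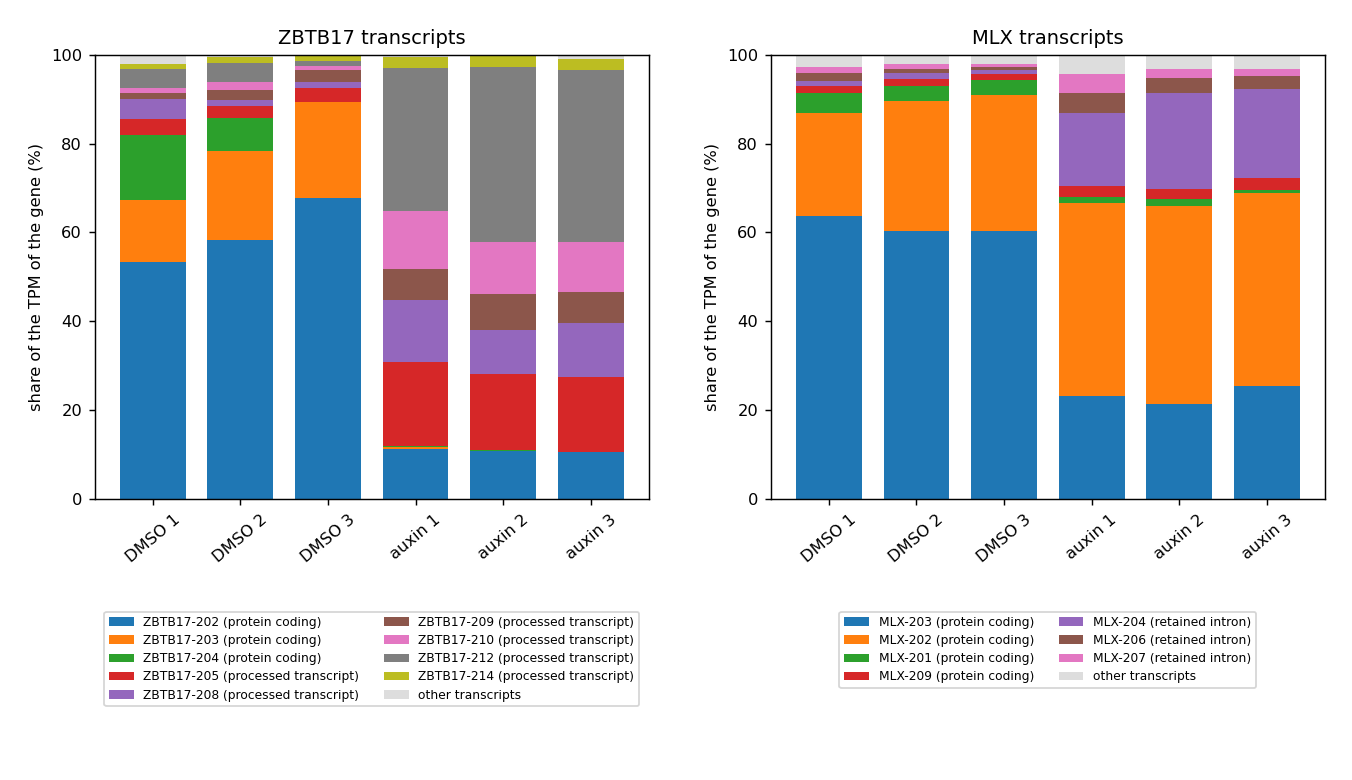
Stacked shares of the TPM of ZBTB17 (left) and MLX (right) held by each transcript in the 6 libraries, with the annotated type in the legend. The coding transcripts ZBTB17-202 and MLX-203 fill 53.5% to 67.7% and 60.3% to 63.7% of the DMSO bars, and 10.7% to 11.3% and 21.5% to 25.4% of the auxin bars.

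The stretches below show where ZBTB17-212 and MLX-204 run from an intron of the main coding transcript straight into its next exon. The capitals are the last 40 bases of the intron, which end in the AG of an unused acceptor site, and the lower case letters are 20 bases of the coding exon (GENCODE transcripts, GRCh38).
ZBTB17-212 (chr1:15943175-15943234, minus strand): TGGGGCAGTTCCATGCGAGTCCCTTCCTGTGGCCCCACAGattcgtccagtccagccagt
MLX-204 (chr17:42569942-42570001, plus strand): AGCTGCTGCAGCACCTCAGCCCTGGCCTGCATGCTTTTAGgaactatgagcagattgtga

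**Figure D5:**
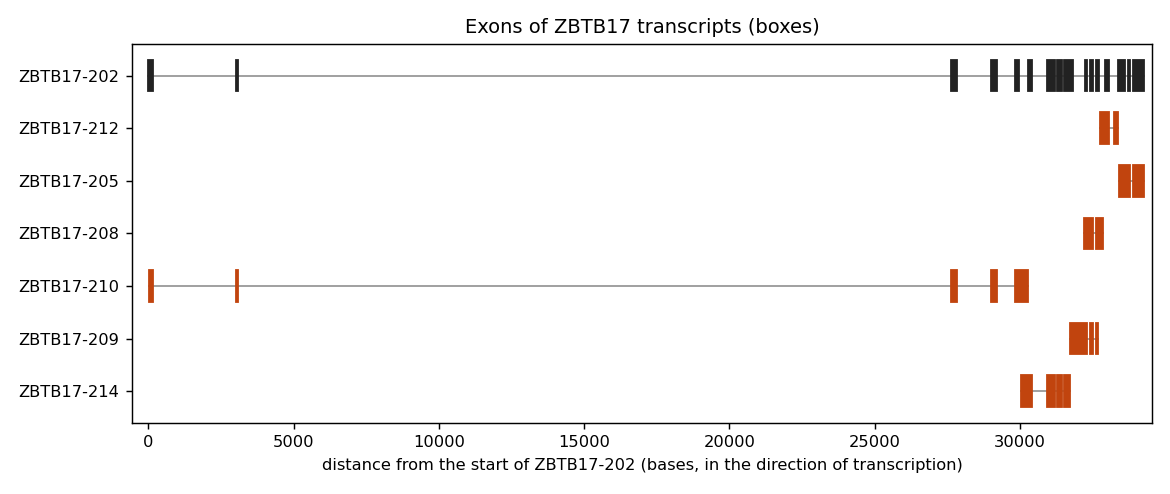
Exons (boxes) of the coding transcript ZBTB17-202 (black) and of 6 transcripts without a reading frame (red), by distance in bases from the start of ZBTB17-202. The boxes of the red transcripts fill gaps between black exons, mostly in the last stretch of the gene, and those of ZBTB17-212 cover 336 intronic bases.

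PIAS2, which shares the older name MIZ1 and is no member, rose by 0.25 ± 0.05 (edgeR's quasi-likelihood test, adjusted p = 0.00307), from 61.8 to 62.2 CPM in DMSO to 72.2 to 75.4 CPM in auxin libraries. Its call was lost with library size scaling (adjusted p = 0.0586) and on log2 TPM with limma (adjusted p = 0.577).

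The lists of related genes are read against all tested genes, of which 25.4% were called higher and 26.9% lower. GC-corrected values are printed for some named genes only. Those without one could move as well, as HDAC1 did from -0.51 to -0.65. Limma on log2 TPM with a pseudocount of 1 called only 970 genes higher and 2966 lower in all, and fewer in total in each of these lists. Of 8 listed relatives that read the E-box 7 were tested, and 2 were called higher and 3 lower (28.6% and 42.9%), with a median log2 fold change of 0.02 as over all tested genes. MLXIPL, the ChREBP partner of MLX, fell by 3.06 on the log2 scale (-2.20 with the GC correction), while MLXIP, the MondoA partner, had 0.02 and was not called. USF2, an E-box factor outside the MAX family, fell by 1.85 (-1.31 corrected) and USF1 by 0.39 (-0.20 corrected). MYCL rose by 0.50 (0.73 corrected) and TFAP4, a MYC-induced E-box factor, by 0.54 (0.92 corrected).

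Of the 16 cofactors and repressor subunits, 5 were called higher and 8 lower (31.2% and 50%), with a median of -0.28. HCFC1, a host cell factor that binds MYC, went from 200.9 ± 28.4 to 23.2 ± 4.27 CPM (log2 fold change -3.11, or -2.40 with the GC correction). PAF1, the elongation factor subunit, had -2.71 (-2.38 corrected) and the acetyltransferase KAT2A -1.58 (-0.98 corrected). RUVBL1, a helicase of chromatin complexes, had 0.58 and WDR5, the chromatin anchor of MYC, 0.34 (0.61 corrected). NCOR1 had 0.34, a call lost with the GC correction (0.18, edgeR's quasi-likelihood test, adjusted p = 0.0558). Among the 14 genes of MYC protein turnover, 3 were called higher and 7 lower (21.4% and 50%, median -0.18), against 4 and 5 with upper-quartile factors and 0 and 3 with limma on log2 TPM. CIP2A, which shields MYC from phosphatase, fell by 0.57 and the deubiquitinase USP28 by 0.55. The nucleolar deubiquitinase USP36 rose by 0.76 (1.11 corrected), and the ligase genes FBXO32 and TRIM32 by 0.57 and 0.34 (0.22 corrected for TRIM32).

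Of the 12 other subunits of the MGA complex PRC1.6, 2 were called higher and 4 lower (median -0.02), so 50% were called where 52.3% of all tested genes were. RING1, its ubiquitin ligase, fell by 2.42 (-1.70 corrected), L3MBTL2, its methyl-lysine reader, by 1.57 and HDAC1 by 0.51. WDR5, which is also in the cofactor list, rose by 0.34. YAF2 had 0.22, a call lost with the GC correction (0.11, edgeR's quasi-likelihood test, adjusted p = 0.170). The germline genes that this complex represses were low in both groups. Their summed TPM was 2.97 to 4.26 in DMSO and 3.68 to 4.63 in auxin libraries, and of 10 tested 2 were called higher, among them the piRNA pathway gene TDRKH at 0.72, and 1 lower (20.0% and 10.0%).

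Genes known as MYC targets in ribosome biogenesis and growth included called genes of both directions. Of 63 tested, 20 were called higher and 25 lower, which is 31.7% and 39.7% against 25.4% and 26.9% of all tested genes, and the median was -0.06. With upper-quartile factors, which shift the median of all genes by 0.12, the counts were 23 and 22, with library size alone 17 and 29, with the GC correction 21 and 21, and with limma on log2 TPM 6 and 21, so the balance of the 2 directions depends on the scaling. AIMP2, a scaffold of tRNA synthetases, rose by 1.05, POLR1B, a subunit of RNA polymerase I, by 0.96 and PUS1, a pseudouridine synthase, by 0.94 (1.49 with the GC correction). NOC4L, a ribosome assembly factor, fell by 3.78, the kinase MAP3K6 by 3.17 and SLC29A2, a nucleoside transporter, by 2.65, or -2.85, -2.32 and -1.97 with the GC correction. The summed TPM of the list was 8259 to 9722 in DMSO and 8230 to 9099 in auxin libraries.

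Of the 9 genes listed here as repressed through MYC and Miz-1, 5 were called higher and 3 lower (55.6% and 33.3%), with a median of 0.42. Whether each of them is repressed in this way was not tested. The counts were 3 and 3 with library size alone or without DMSO replicate 3, and 1 and 2 with limma on log2 TPM. GADD45A and GADD45B, stress response genes, rose by 0.81 and 0.51 (1.09 corrected for GADD45B) and CDKN2B, the cell cycle inhibitor p15, by 0.51. CDKN1C, the inhibitor p57, fell by 3.41 (-2.54 corrected), NDRG2 by 1.93 and CDKN1B, the inhibitor p27, by 0.49. Of 6 tested targets of MLX and MondoA, KLF10 was called higher at 0.31 and PFKFB3, a glycolysis regulator, lower at -0.56 (16.7% each). Both calls were lost with the GC correction, with KLF10 at 0.17 (edgeR's quasi-likelihood test, adjusted p = 0.154) and PFKFB3 at -0.27 (adjusted p = 0.0866). In bulk RNA a lower level in each cell and fewer cells with the transcript cannot be told apart, for these lists and for the members.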

How the data were processed

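The 6 libraries (3 auxin, 3 DMSO) were grouped by the labels. The authors deposited, per library, a gene and a transcript table in the layout of RSEM output, per the file headers, with expected counts (estimated reads, not normalized) and TPM. The submitters' processing notes name bcl2fastq 2.20, STAR, DESeq2 and GRCh38. Their roles and the strand setting of the counting are not given in the sources used here. The deposited tables also hold each transcript's share of its gene as a percent and the posterior standard deviation, here treated as a score, both as the authors' program wrote them. IDs were matched to GENCODE 29, and rows that name no human gene (at most 0.00111% of counts) were left out.

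Expected counts were rounded, filtered with filterByExpr and tested with edgeR 4.0.16 (TMM, glmQLFTest, R 4.3.3). Transcript shares were tested with limma 3.58.1 on log2 odds of expected counts with a prior count of 0.5, while the shares printed are of TPM. Shares of the deposited TPM were compared by exact permutation over 20 assignments, two-sided. The procedures were tested on simulated data. At 234035407 to 625892507 counts per library, counting error is small for abundant genes but not for transcripts at low counts. In its lowest library ZBTB17-212 had 2.54 counts, ZBTB17-208 3.42 and MXD3-206 21.2. Libraries of 1 group differed by a chi-square of at least 38.2 per degree of freedom, so none was a copy of another. Whether they came from separate cultures cannot be read from this value.

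The replicate numbers come from the labels, and deviations of same-numbered libraries from their group means correlated at 0.651, 0.265 and 0.276. The replicate block and the differences within replicates pair the samples by these label numbers. The main tests and the permutation tests did not use these pairs. With the block 7005 genes were called higher and 6789 lower, against 5010 and 5311 without it. DMSO replicate 3 and auxin replicate 2 correlated at 0.312, above the same-numbered values of replicates 2 and 3. DMSO replicate 2 and auxin replicate 3 correlated at 0.18. The correlations thus set replicate 1 apart in both groups but do not show how replicates 2 and 3 pair. Calls made only with the block rest on the label numbers. Nothing in the labels says that separate cultures were used beyond the word biological. P-values set the difference between the groups against the spread between these libraries within a group.

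The members and lists were chosen with earlier results of these data known. All members are named, with MAX transcripts of a mean share of at least 2%, up to 3 called genes per list and direction with a mean CPM of at least 1, and the 5 genes most like MYC with a mean CPM of at least 10. A list gene chosen this way is not reported here. Transcripts of other members, the MAX exon groups, the GC correction and the coding-only counts were chosen after seeing the data. Alternatives were DESeq2 1.42.0, other scalings and filters, limma on log2 TPM with pseudocounts of 1 and 0.1, the block and leaving out libraries.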

Additional observations from a re-analysis of the deposited data

How the results depend on the processing

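Under 18 alternatives to the gene fit, MYC and MLX kept direction and call in all, and of 198 comparisons of a member or PIAS2 with its first value 162 kept both. On log2 TPM with limma, 2 members were called higher and 1 lower with either pseudocount, with 970 and 2966 genes at a pseudocount of 1 and 1017 and 3223 at 0.1. With the GC correction 2 members were called lower, also together with the replicate block. MNT then had 0.28 in both fits and MXD4 0.020 and 0.019, reversing their direction, and ZBTB17 reversed to -0.54 on protein-coding transcripts. The cause was not tested. The replicate block alone added MXD4 at -0.41 and MXI1 at 0.46 and gave 10666 transcripts called higher, against 6999 without it, and changed no other call of a member gene. Upper-quartile factors gave 10807 transcripts called higher and limma on log2 TPM 2553, and MAX-201 turned from -0.03 to 0.16 with the former.

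Leaving out each library in turn gave 3274 to 5395 transcripts called higher, 5626 to 8883 lower, 2573 to 4302 with a higher share and 1246 to 2748 with a lower share. MAX-201 ranged from -0.12 to 0.053 in level and MAX-210 from -0.15 to 0.74 in log2 odds. Members called ranged from 4 to 5 higher and 3 to 5 lower. Differences in MAX exon groups ranged from 4.08 to 9.86 points for the 27-base exon, from 2.15 to 7.46 for the alternative exon and from -3.25 to 7.66 for the skipped exon, and as a share of expected counts the alternative exon differed by 1.85 points in place of 4.66. MXD3, the member with the fewest counts, rests on 285 to 1928 counts per library, and how far depth limits it was not tested. Where an arm had 2 libraries, the spread was pooled over both groups.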
